A study of Mus musculus with 12 samples.

Results

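The neurexins, neuroligins and leucine-rich repeat transmembrane neuronal proteins (LRRTMs) are adhesion molecules that join the presynaptic and postsynaptic sides of a synapse. The genes described here are Nrxn2, Nrxn3, Nlgn1, Nlgn2, Nlgn3, Lrrtm1, Lrrtm2, Lrrtm3 and Lrrtm4. They were taken by name from a table of reads counted over coding sequences (CDSs), where they make up 9 of 20504 entries. The rule uses no measured value, but the genes were chosen with earlier results of these data known.

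All mice were Camk2a-Cre RiboTag animals aged 3 months, in which Cre driven by the Camk2a promoter turns on an HA-tagged copy of the ribosomal protein Rpl22, so that tagged ribosomes are made mainly in excitatory forebrain neurons. From untreated mice E and F, total RNA of the brain lysate (the input) and RNA bound to HA-immunoprecipitated ribosomes (the RiboTag IP) were sequenced. Mice A and B, which the labels call untreated and the study's methods describe as given vehicle by gavage, and mice C and D, given 100 mg/kg of the mTOR inhibitor AZD-8055 and killed after 1 h, each gave an RNA-Seq library and a ribosome footprint library from the frontal lobe. There were therefore 12 libraries in 6 groups of 2 mice each. Each p-value rests on 2 animals per group, the same 2 mice on both sides for IP against input and for footprints against RNA. The main tests did not pair libraries by mouse. Fits with the mouse as a block are named where they are used.

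Neurexins sit on the presynaptic membrane and bind neuroligins and LRRTMs across the synaptic cleft. Nlgn1 is known mainly from excitatory synapses and Nlgn2 from inhibitory ones, where it binds the scaffold gephyrin, whereas Nlgn3 is found at both. LRRTMs are postsynaptic partners of neurexins at excitatory synapses. Neurexin genes make long alpha and short beta proteins from separate promoters, with extensive alternative splicing. The tables hold 1 count per gene, so these forms were added together.

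The genes differ widely in size and surroundings. In the RefSeq annotation of GRCm38.p6, the assembly that mm10 names, Nrxn3 covers 1612 kb of chromosome 12 (88722701 to 90334935) and Nlgn1 covers 911.1 kb of chromosome 3 (25421808 to 26332866). Nrxn2 covers 114.5 kb of chromosome 19 (6418756 to 6533217), Nlgn3 22.17 kb of chromosome X (101299179 to 101321350) and Nlgn2 14.66 kb of chromosome 11 (69823123 to 69837784). Lrrtm4 covers 791.3 kb of chromosome 6 (80018858 to 80810162). Lrrtm1 (chromosome 6, 77229210 to 77259915) overlaps the span of Ctnna2, Lrrtm3 (chromosome 10, 63928497 to 64090255) that of Ctnna3, and Lrrtm2 that of Ctnna1. Whether reads were counted by strand is not given in the sources used here, so counts of these LRRTM genes could include reads of an overlapping catenin gene.

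RefSeq start sites were given for 6 of the 9 genes, 10 sites in all. Those of Nrxn3 are shown because transcripts from distant starts enter a single Nrxn3 count, and that of Nlgn2 because Nrxn3 and Nlgn2 stood at opposite ends of the translation efficiencies described further on. Each line gives the 30 bases just before the annotated start, 5′ to 3′ on the strand of the gene, with CG in capitals.
Nrxn3, chr12:88794474-88794503, plus strand: tcttctcctcttctctcccttcttcaacag
Nrxn3, chr12:88953360-88953389, plus strand: gagaagagttgcaaaatcaCGaacaacact
Nrxn3, chr12:89812453-89812482, plus strand: cacttcacctgtgcctccccagttgCGCGc
Nlgn2, chr11:69837785-69837814, minus strand: ggcagggggCGggggaggCGgcCGCGCGgt

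The first of the Nrxn3 stretches is a run of pyrimidines that ends in cag, letters that also close many introns, and holds no CG. The second holds 1 CG, the third 2 and that of Nlgn2 5. At least 1 CG was present in the same stretch of 57.07% of 32851 RefSeq start sites. Over a 300-base window around the start, GC content was 47.33%, 47.67% and 60.67% at the Nrxn3 sites and 68.67% at Nlgn2, beside a median of 52.67% over all start sites.

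The CDS libraries held 3503873 to 15585831 counts each. The shallowest were the footprint libraries of mice C, B and D, at 3503873, 4551357 and 4759336. In the RiboTag IP, 4 of 5 markers of excitatory neurons were higher than in input, while all 6 markers of inhibitory neurons, 5 of astrocytes, 5 of oligodendrocytes, 4 of their precursors, 5 of microglia and 4 of endothelial cells were lower. The exception was Camk2a itself, whose log2 change was -0.66 by CDS counts (called lower) but 0.27 by counts over whole exons (not called, and called higher with each mouse as a block). Of 6 markers of striatal projection neurons, 1 was higher, 2 lower and 3 not called. Summed over its markers, the inhibitory neuron level was 974 and 997 CPM (each gene's counts as parts per 1000000 of the library) in the inputs against 214 and 147 in the IPs, and no marker was at 0. By the study's methods, input and IP were parts of the same lysate. The input held RNA of all cell types in it, and the IP mainly RNA on the tagged ribosomes. The part of these marker shifts in the changes below was not tested.

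RiboTag IP and input were compared to ask which of the adhesion genes had more ribosome-bound RNA in Camk2a-expressing neurons than their share of total RNA. Levels are CPM scaled by the trimmed mean of M-values (TMM). In a quasi-likelihood test (edgeR), p-values being adjusted by Benjamini and Hochberg over 12211 genes, Nrxn2, Nlgn2, Lrrtm1 and Lrrtm3 were higher in the IP and Nrxn3, Nlgn1, Nlgn3 and Lrrtm2 were lower. These are 4 of 9 in each direction, where 36.5% of all genes tested were called higher and 39.0% lower, so the share of calls was near that of genes in general. The median log2 change was 0.28 over the 9 genes and -0.07 over all genes.

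The neurexins changed in opposite directions. The Nrxn2 level was 438 and 409 CPM in the inputs of mice E and F and 644 and 615 CPM in their IPs. Both IPs lay above both inputs, and the log2 change was 0.57 ± 0.10 (SE, n = 2 mice; edgeR adjusted p = 0.000815). Scaled to total counts, the change was 0.13 and was not called (edgeR adjusted p = 0.258). The Nrxn3 level was 172 and 181 CPM in the inputs and 70.9 and 65.3 CPM in the IPs. Its log2 change was -1.38 ± 0.12 (edgeR adjusted p = 1.31e-05), so that Nrxn3 was 2.59-fold lower in the IP.

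Among the neuroligins, the postsynaptic ligands, Nlgn1 stood at 52.1 and 62.2 CPM in the inputs and 37.1 and 31.5 CPM in the IPs, a log2 change of -0.74 ± 0.15 (edgeR adjusted p = 0.00197). Nlgn3 stood at 77.0 and 77.7 CPM in the inputs and 55.6 and 43.1 CPM in the IPs, a change of -0.65 ± 0.15 (edgeR adjusted p = 0.00317). Both genes were lower in the IPs of both mice, with the larger drop in mouse F. Nlgn2, the neuroligin of inhibitory synapses, was at 244 and 234 CPM in the inputs and 303 and 277 CPM in the IPs. Its log2 change of 0.28 ± 0.11 (edgeR adjusted p = 0.0433) was the smallest of the 8 called, and under scaling to total counts, which moved the median of all genes to -0.51, it was -0.16 and so changed sign while staying above that median.

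Lrrtm1 and Lrrtm2 gave the highest and the lowest change among the 9 genes. Lrrtm1 was at 53.7 and 45.0 CPM in the inputs and 112 and 91.6 CPM in the IPs, a log2 change of 1.05 ± 0.15 (edgeR adjusted p = 0.00022), or 2.07-fold. Lrrtm2 was at 45.5 and 42.9 CPM in the inputs and 15.5 and 11.0 CPM in the IPs, a log2 change of -1.74 ± 0.19 (edgeR adjusted p = 4.05e-05). Neither pair of groups overlapped, although the share of all genes without overlap was not computed. Lrrtm3 rose from 51.4 and 54.9 CPM to 78.6 and 76.7 CPM, with a log2 change of 0.55 ± 0.12 (edgeR adjusted p = 0.00274). This call too was lost under total counts, at 0.11 (edgeR adjusted p = 0.433).

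Lrrtm4 was at 27.1 and 36.1 CPM in the inputs and 36.97 and 40.1 CPM in the IPs. The input of mouse F nearly reached the IP of mouse E, and the log2 change of 0.28 ± 0.17 did not pass (edgeR adjusted p = 0.160). With each mouse as a block, so that the IP was read against the input of the same animal, Lrrtm4 was called higher at 0.29 (edgeR adjusted p = 0.0443), in a fit that called 81.9% of all genes. Under total counts its change was -0.16.

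**Figure D1:**
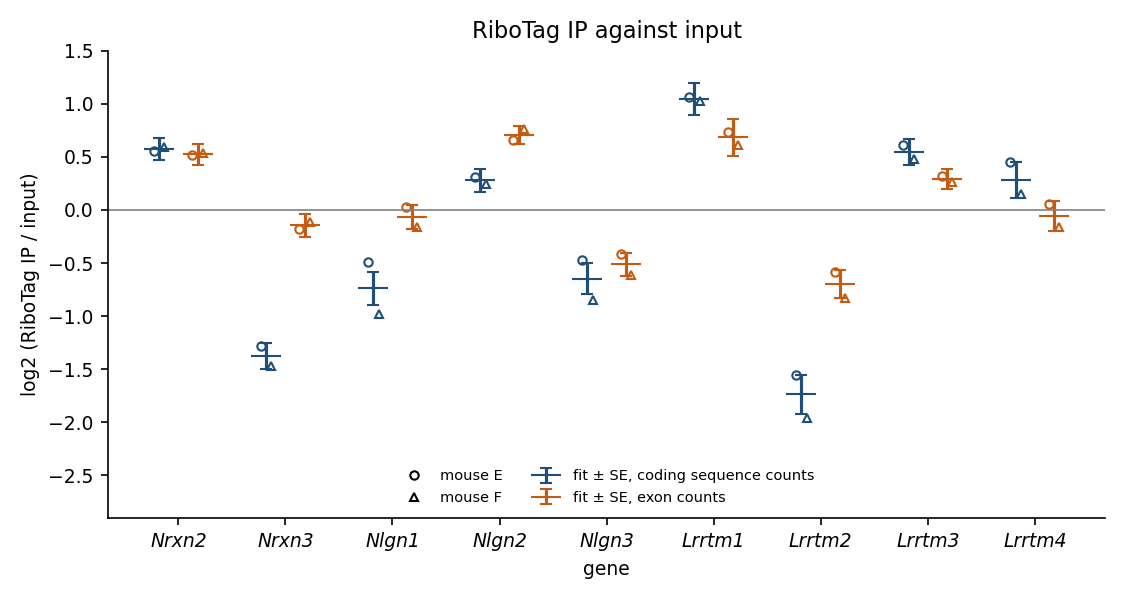
Log2 ratio of RiboTag IP to input for each gene, from coding sequence counts (blue) and exon counts (orange). Horizontal marks with bars are the fitted change ± SE, circles mouse E and triangles mouse F. The largest gaps between the 2 kinds of count are at Nrxn3 (-1.38 and -0.14) and Lrrtm2 (-1.74 and -0.70).

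Several of the decreases depended on which part of the transcript was counted. A second table counted reads over whole exons, untranslated regions included, for the same inputs and IPs. There 33.7% of 13254 genes were called higher and 35.7% lower, and 4 of the 9 genes were called higher and 2 lower. Nrxn3 was at 222 and 243 CPM in the inputs and 196 and 225 CPM in the IPs, a log2 change of -0.14 ± 0.11 (edgeR adjusted p = 0.264). Nlgn1 was at 62.8 and 73.8 CPM in the inputs and 64.2 and 66.2 CPM in the IPs, a change of -0.07 ± 0.11 (edgeR adjusted p = 0.611). Neither gene was called lower by exon counts, where the IPs and inputs overlapped for both. With the mouse as a block, the exon change of Nrxn3 was called lower (-0.15, edgeR adjusted p = 0.0377), in a fit that called 80.9% of all genes.

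The other genes kept their call by exon counts. Nlgn3 was still lower, with a log2 change of -0.51 ± 0.11 (edgeR adjusted p = 0.00602), and so was Lrrtm2, at -0.70 ± 0.13 (edgeR adjusted p = 0.00347). Nlgn2 was higher by 0.71 ± 0.08 on the log2 scale, more than by CDS counts, from 332 and 315 CPM in the inputs to 523 and 534 CPM in the IPs. Nrxn2 (0.52 ± 0.10), Lrrtm1 (0.68 ± 0.18) and Lrrtm3 (0.29 ± 0.10) were also called higher. Lrrtm4 was not called, and its estimate of -0.06 ± 0.14 was opposite in sign to that of CDS counts.

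The share of a gene's exon counts that lay on coding sequence was therefore computed. Over the whole table it was 57.5% and 55.9% in the inputs against 47.3% and 44.9% in the IPs, so coding counts were a smaller part of the IP libraries in general. For Nrxn3 the share was 47.4% and 43.8% in the inputs against 16.4% and 12.1% in the IPs. For Lrrtm2 it was 31.5% and 30.2% in the inputs against 11.9% and 9.83% in the IPs. Coding sequence was thus a smaller part of the exon counts of both genes in both IPs.

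On the log2 scale the CDS share of Nrxn3 changed by -1.69 and that of Lrrtm2 by -1.51, at the 4.79 and 6.85 percentiles of 12159 genes whose median was -0.31. Nlgn1 changed by -1.13, Nlgn2 by -0.89, Nlgn3 by -0.61 and Nrxn2 by -0.41. Lrrtm3 (-0.20), Lrrtm4 (-0.11) and Lrrtm1 (-0.09) changed by less than the median gene did. In the RNA-Seq libraries of mice A to D the Nrxn3 share was 34.5% to 38.3%, between the values of the inputs and those of the IPs. These shares were compared without a test.

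**Figure D2:**
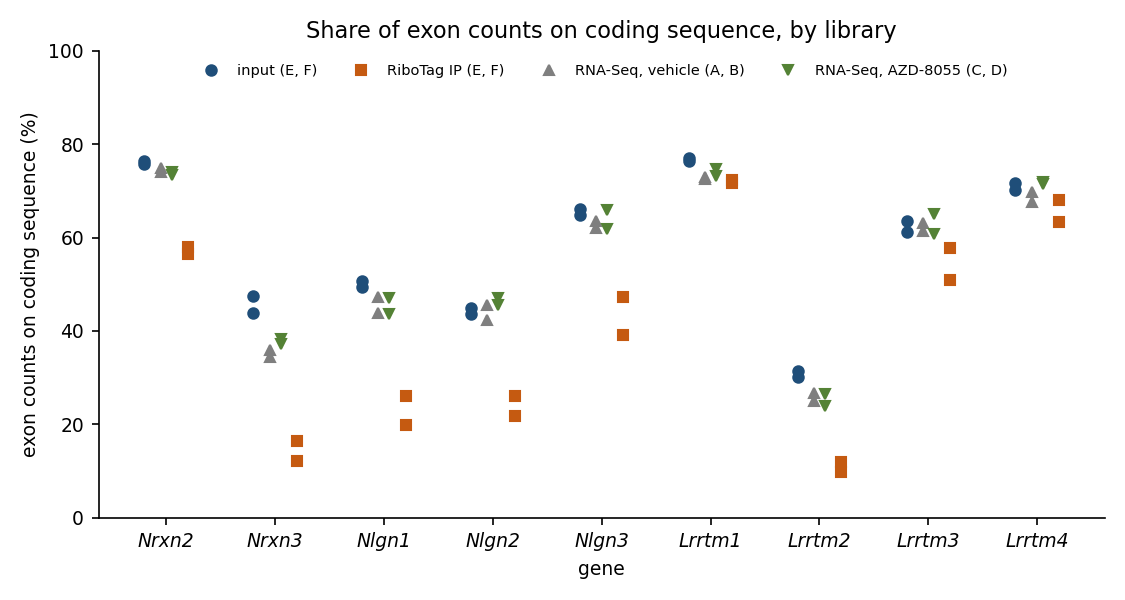
Percent of each gene's exon counts that lay on coding sequence, with 1 point per library. Both RiboTag IP libraries (orange squares) lie below both inputs (blue circles) for every gene, from 16.4% and 12.1% against 47.4% and 43.8% for Nrxn3 to 71.6% and 72.4% against 77.1% and 76.4% for Lrrtm1.

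Counts on the part of the exons outside coding sequence were obtained by subtraction. For Nrxn3 they numbered 2778 and 4211 in the inputs against 2891 and 4023 in the IPs, a log2 change of 0.01 ± 0.12 after TMM scaling. For Nlgn1 the change was 0.05 ± 0.13. Lrrtm2 was lower here as well, at -0.83 ± 0.14 (edgeR adjusted p = 0.00124), with 59.6% of 9947 genes called in either direction. Nrxn2 (0.86 ± 0.12) and Nlgn2 (0.65 ± 0.10) were higher outside coding sequence too (edgeR adjusted p = 0.000495 and 0.000711). Besides Nrxn3 and Nlgn1, a further 4 genes were not called here. These were Lrrtm1 (0.46 ± 0.20), Lrrtm3 (0.07 ± 0.13) and Nlgn3 (-0.30 ± 0.12), which CDS counts had called (edgeR adjusted p = 0.0830, 0.687 and 0.0587), and Lrrtm4, whose estimate of -0.31 ± 0.18 was opposite in sign to that of CDS counts.

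Translation efficiency (TE), the ratio of footprints to RNA over coding sequence, was next compared within the vehicle mice. Log2 TE was computed for each mouse from counts divided by DESeq2 size factors, so that 0 lies near the middle of all genes. The order from high to low was Nrxn3, Nlgn3, Lrrtm2, Nlgn1, Lrrtm4, Lrrtm3, Lrrtm1, Nrxn2 and Nlgn2. All 9 differed between footprints and RNA by edgeR's quasi-likelihood test, 5 being higher and 4 lower. Of 10910 genes tested, 36.2% were called higher and 37.3% lower. The median log2 difference was 0.69 over the 9 genes and 0.00 over all genes.

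Nrxn3 had the highest log2 TE, which was 1.46 for mouse A and 1.54 for mouse B, a mean at percentile 95.4 of 10882 genes. It gave 1309 and 1363 counts in the RNA libraries and 3249 and 1735 in the footprint libraries. The fitted log2 difference was 1.49 ± 0.07 (edgeR adjusted p = 2.26e-11), or 2.80-fold more footprints than its coding-sequence RNA counts would give at the typical ratio. Nrxn2 was at -1.09 and -1.18, the 12.6 percentile, with a fitted difference of -1.15 ± 0.08 (edgeR adjusted p = 1.66e-09). The neurexins thus lay near opposite ends of the range in both mice. In the RNA libraries of mice A and B, 35.9% and 34.5% of Nrxn3 exon counts lay on coding sequence, beside a gene median of 65.2%. This share was also low for Lrrtm2 (25.1% and 26.8%) and Nlgn1 (44.0% and 47.2%). It was likewise low for Nlgn2 (42.4% and 45.6%), whose TE was the lowest. The part of this share in the TE values was not tested.

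The neuroligins were divided in the same way. Nlgn2 was the lowest of the 9 genes, at a log2 TE of -1.23 and -1.17 (11.5 percentile), and its fitted difference was -1.22 ± 0.09 (edgeR adjusted p = 1.36e-09). Nlgn3 was at 1.03 and 0.82 (85.8 percentile) and Nlgn1 at 0.68 and 0.73 (79.4 percentile), with fitted differences of 0.93 ± 0.09 and 0.69 ± 0.09 (edgeR adjusted p = 5.01e-08 and 3.46e-06). The Nlgn2 values of both mice were below every value of Nlgn1 and Nlgn3. The 2 values of Nlgn2 overlapped the range of Nrxn2, so these neighbours in the order did not differ beyond the spread between mice, whereas Nlgn3 lay above Nlgn1 in both mice.

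Among the LRRTMs, Lrrtm2 was at 1.08 and 0.77 and Lrrtm4 at 0.78 and 0.59, with fitted log2 differences of 0.93 ± 0.10 and 0.69 ± 0.11 (edgeR adjusted p = 3.71e-07 and 1.96e-05). Their ranges over the mice overlapped, although Lrrtm2 was above Lrrtm4 within each vehicle mouse, a difference that was not tested. The range of Lrrtm2 also overlapped that of Nlgn3, and the range of Lrrtm4 enclosed the range of Nlgn1. Lrrtm1 was at -0.54 and -0.41, a fitted difference of -0.49 ± 0.10 (edgeR adjusted p = 0.000199). Lrrtm3 was at -0.18 and -0.35 with a fitted difference of -0.25 ± 0.11 (edgeR adjusted p = 0.0453), and this call was lost with DESeq2 or with a lower count minimum. Both values of Lrrtm3 lay above both of Lrrtm1. In a fit of all 12 libraries without mouse A, Lrrtm1 (-0.45), Lrrtm3 (-0.39) and Lrrtm4 (0.55) kept their direction and did not pass. Lrrtm3 did not pass in that fit without mouse B either (-0.19, edgeR adjusted p = 0.403), nor with all mice (-0.28).

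**Figure D3:**
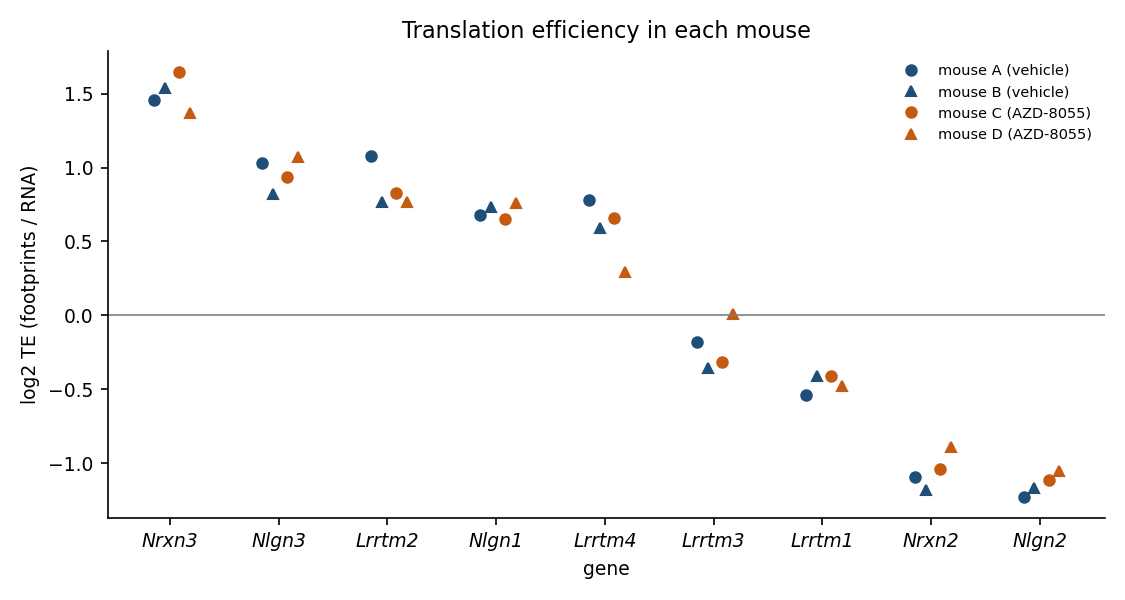
Log2 translation efficiency of each gene in each mouse, ordered by the mean of vehicle mice A and B (blue), with AZD-8055 mice C and D in orange. Nrxn3 stands highest (1.46 and 1.54 in vehicle mice) and Nrxn2 and Nlgn2 stand lowest.

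The 4 genes lower in the RiboTag IP by CDS counts (Nrxn3, Nlgn1, Nlgn3 and Lrrtm2) each had a TE called higher, and the 4 genes higher in the IP (Nrxn2, Nlgn2, Lrrtm1 and Lrrtm3) each had a TE called lower. The measurements came from different mice. Over the 9 genes Spearman's rho between the log2 IP change and the log2 footprint difference was -0.73, a description over genes that share the libraries of each assay and lengths of coding sequence. Over all 10844 genes in both fits rho was -0.17. Among genes lower in the IP, 44.2% had a TE called higher and 31.9% one called lower, and among genes higher in the IP these were 29.3% and 43.3%. With exon counts in the IP comparison rho was -0.02 over 10864 genes and -0.92 over the 9 genes.

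**Figure D4:**
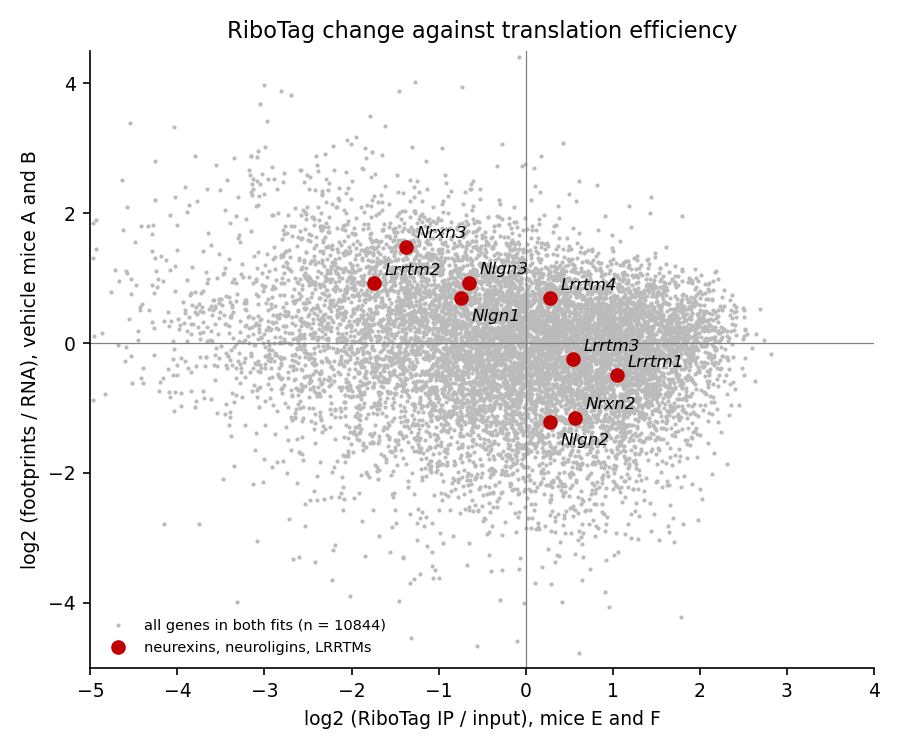
Fitted log2 IP to input change in mice E and F (horizontal axis) against fitted log2 footprint to RNA difference in vehicle mice A and B (vertical axis), both from coding sequence counts, for 10844 genes (grey, of which 15 lie outside the axes) and the 9 adhesion genes (red). Nrxn3, Lrrtm2, Nlgn1 and Nlgn3 lie at upper left, Nrxn2, Nlgn2, Lrrtm1 and Lrrtm3 at lower right, and Lrrtm4 at upper right.

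AZD-8055 was given to ask which genes change in RNA or translation within 1 h of mTOR inhibition. None of the 9 genes was called in RNA, in footprints or in TE by edgeR's quasi-likelihood test, where 0.148%, 1.03% and 1.01% of all genes were called. DESeq2 also called 0 of 9 in each comparison. At an unadjusted edgeR p under 0.05 there were 0 of the 9 in RNA, 1 in footprints (Nlgn2) and 0 in TE. Over all genes these numbered 1004 of 12182 in RNA, 1369 of 10695 in footprints and 769 of 10531 in TE. The comparisons share their libraries and are given side by side.

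The Nrxn2 footprint level was 216 and 227 CPM in vehicle mice and 226 and 266 CPM in treated mice, a log2 change of 0.16 ± 0.09 (edgeR adjusted p = 0.488). Nlgn2 footprints were at 102 and 122 CPM in vehicle mice and 125 and 136 CPM in treated mice, a change of 0.23 ± 0.10 (edgeR adjusted p = 0.366). The groups overlapped for Nrxn2 and did not for Nlgn2. Without mouse C, which had the shallowest footprint library, both were called higher, at 0.27 and 0.29 (edgeR adjusted p = 0.0435 and 0.0406), while the number of genes called rose from 110 to 837. Nrxn3 footprints were at 358 and 387 CPM in vehicle mice and 427 and 406 CPM in treated mice, a change of 0.16 ± 0.07 (edgeR adjusted p = 0.397), and here too the groups did not overlap.

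Estimates over the 9 genes ranged from -0.12 to 0.13 in RNA, from -0.18 to 0.23 in footprints and from -0.21 to 0.20 in TE, on the log2 scale. The lowest TE estimate was that of Lrrtm4 (-0.21 ± 0.16) and the highest that of Nrxn2 (0.20 ± 0.11). Standard errors of the TE change were 0.11 to 0.18, so changes of this size were not detectable with 2 mice per group. In RNA, 1 of 6 markers of striatal projection neurons was called higher after AZD-8055, and their summed level was 996 and 1009 CPM in vehicle mice and 1174 and 1245 CPM in treated mice. The part of this in the results was not tested, and in bulk tissue more cells of a type cannot be told apart from more RNA per cell.

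**Figure D5:**
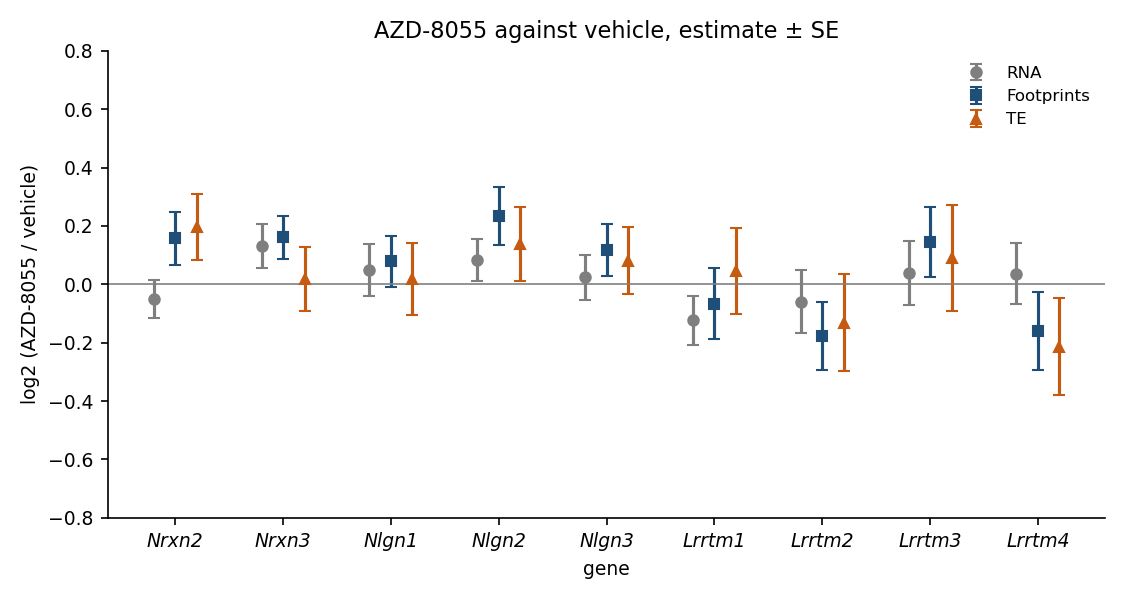
Log2 change from vehicle to AZD-8055 in RNA (grey circles), footprints (blue squares) and TE (orange triangles) for each gene, as the fitted estimate ± SE from 2 mice per group. Every estimate lies between -0.21 and 0.23, and no gene passed the test.

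Other genes of trans-synaptic adhesion were measured by the same tests, from lists that hold 63 genes of the table. In the IP, 17 of 59 tested were higher, 25 lower and 17 not called, beside 36.5% higher and 39.0% lower over all genes, and their median log2 change was -0.20. By exon counts 16 of 60 were higher and 18 lower, and the median of 0.04 had the opposite sign. The latrophilins, FLRTs and teneurins, another set of trans-synaptic partners, had 9 of 10 lower and 0 higher, while the netrin-G system had 3 of 4 higher and 0 lower. By exon counts, 6 of these 10 were lower and 0 higher, and 2 of these 4 were higher and 0 lower. With each mouse as a block, exon counts gave 9 of 10 lower and 4 of 4 higher. That fit called 39.4% of 13254 genes higher and 41.5% lower.

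The genes that rose most in the IP were Lin7b (2.17), a scaffold that binds Cask, the cell adhesion gene Cadm4 (1.63) and Khdrbs3 (1.51), which encodes the splicing regulator SLM2 of neurexin transcripts. Those that fell most were the teneurin Tenm1 (-3.43), the neurexin ligand Nxph1 (-3.02) and Il1rapl1 (-2.41), a ligand of receptor phosphatases. All passed the test by CDS counts (edgeR adjusted p from 2.57e-06 to 0.000199), and their exon values are not given here. Calls in these lists could shift by exon counts. Of 9 intracellular partners, 4 were lower by CDS counts and 0 by exon counts, with 3 higher by both. Of the direct intracellular partners, Dlg4 (PSD-95, which binds neuroligins) was higher at 1.01 ± 0.13 (edgeR adjusted p = 0.000102) and the neurexin-binding kinase Cask lower at -0.96 ± 0.15 (edgeR adjusted p = 0.000315). Gephyrin (Gphn) was at -0.20 ± 0.14 (edgeR adjusted p = 0.235) and was not called. By exon counts, Dlg4 was still called higher (0.87 ± 0.13), while Cask (0.22 ± 0.10) was not.

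In the vehicle mice 36 of 58 of these genes had more footprints than RNA and 19 fewer, beside 36.2% and 37.3% of all genes, and their median log2 difference was 0.54. The highest were Cadm2 (3.02), Il1rapl1 (2.87) and Tenm1 (2.52). The lowest were Dlg4 (-2.25), Lrfn4 (-2.22) and Lrrc4b (-1.81). Lrfn4 and Lrrc4b are ligands of receptor phosphatases, as is Il1rapl1 among the highest. Cask (1.54 ± 0.09) and Gphn (0.47 ± 0.08) were higher. After AZD-8055, 0 of 60 genes were called in RNA, 0 of 58 in footprints and 0 of 58 in TE.

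Patterns over the 12 libraries were compared by Pearson's r of log2 CPM, as a description, since libraries of the same kind and mouse are related. Nrxn2 and Nlgn2 followed each other (r = 0.98), as did Nrxn3 and Nlgn1 (0.99), while Nrxn2 and Nrxn3 ran opposite (-0.96). Of 12014 genes, those most like Nrxn2 were Csrp2bp (0.997) and Aggf1 (0.996), and those most like Nrxn3 were Gsk3b (0.996) and Camk1d (0.996). For Nlgn1 they were Dnajc6 (0.995) and Atp2b2 (0.994), for Nlgn2 Tmem191c (0.996) and Atp13a2 (0.996), and for Nlgn3 Tom1l2 (0.995) and Gda (0.994). For Lrrtm1 they were Srsf4 (0.987) and Dbndd2 (0.983), for Lrrtm2 Zfp871 (0.996) and Manea (0.996), for Lrrtm3 Rgs19 (0.936) and Mchr1 (0.933), and for Lrrtm4 Il1rapl2 (0.971) and Fam49b (0.964). Such likeness was common, with r above 0.9 for 1549 genes against Nrxn2 and for 32 against Lrrtm3.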

How the data were processed

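Per the labels and the study's methods, all RNA libraries were poly(A)-selected TruSeq libraries and footprint libraries were made by poly(A) tailing and template switching. The authors removed rRNA reads with Bowtie2, aligned to mm10 with TopHat2 and counted reads per gene with HTSeq, and the deposited values are raw counts over coding sequences (12 libraries) and over exons (8 RNA libraries). Tool versions were not given in the sources used here.

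Genes averaging 37 or more counts over the libraries of a comparison were tested with edgeR 4.0.16 (R 4.3.3) by the quasi-likelihood test with TMM scaling, at a Benjamini-Hochberg adjusted p under 0.05. The TE test was the interaction of assay and treatment. SEs are the log2 change divided by the square root of F. Log2 TE used DESeq2 1.42.0 size factors and at least 75 counts summed over both mice. Off-CDS counts are exon minus CDS counts. The tests were run on simulated counts with few changed genes and no effect of the mouse. That check therefore does not cover libraries paired by mouse or comparisons in which most genes are called.

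Same-letter libraries come from the same animal, and their deviations correlated (r = 0.256 for A and B, 0.269 for C and D, 0.569 for E and F). The genes and lists were chosen with earlier results of these data known. All 9 genes were named, and of the other adhesion genes the 3 that rose and the 3 that fell most among those called, with Cask, Dlg4 and Gphn. A further gene of this rule is not reported here. Alternatives were DESeq2, other scalings, filters and fold limits, exon counts, the mouse as a block, a fit of all 12 libraries, and leaving out each mouse.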

Additional observations from a re-analysis of the deposited data

How the results depend on the processing

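Of 558 recomputed values for single genes, 499 kept direction and call. In the RiboTag comparison, total-count scaling called 3022 genes higher and 6272 lower (4455 and 4766 with TMM), with 1 of the 9 genes higher, and Nlgn2 and Lrrtm4 then changed sign to -0.16 and -0.16. A fold limit of 2 left 2493 genes higher, with 1 of the 9 higher and 2 lower. Exon counts left 2 of the 9 lower, with Lrrtm4 at -0.0596, or -0.0559 with the replicate block. The paired fit, with the mouse as a replicate block, called 5 of the 9 higher and 4 lower, and Lrrtm4 (0.29) was, by CDS counts, the only one of the 9 whose call it changed in this, the vehicle or the TE comparison. In a fit of all 12 libraries, chosen after seeing the data, Nlgn2 was not called (0.19), and without mouse E or without mouse F 3 of the 9 were higher.

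In vehicle footprints against RNA, the fold limit left 1304 genes higher and 1690 lower, with 1 and 2 of the 9. Without mouse A or B, in the fit of all 12 libraries, 2588 to 2961 genes were higher, 2908 to 3127 lower, and 2 to 3 of the 9 lower. Median log2 TE of the 9 genes (0.69) was 0.59 with total counts and 0.59 to 0.68 in 1 mouse. Leaving out a mouse in the RiboTag or vehicle comparison alone leaves no residual degrees of freedom and gave values without a test.

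After AZD-8055, genes called in RNA were 28 with DESeq2, 29 with total counts, 78 without a filter, 4 with the fold limit and 13 to 36 without a mouse. In footprints they were 264 without a filter, 36 with the fold limit and 64 (without mouse B) to 837 (without mouse C), with 0 to 2 of the 9. In TE they were 34 with the fold limit and 58 to 95 without a mouse. Estimates of the 9 genes that were not called changed sign. By exon counts RNA of Lrrtm2 was 0.0046 and of Lrrtm4 -0.00053. Without a filter TE was -0.0307 for Nrxn3, -0.0374 for Nlgn1 and -0.0103 for Lrrtm1. Over mice left out, RNA ranged from -0.00233 to 0.105 (Nlgn1), -0.156 to 0.213 (Lrrtm3), -0.0143 to 0.0612 (Nlgn3), -0.184 to 0.0586 (Lrrtm2). Footprints ranged from -0.163 to 0.0417 (Lrrtm1), -0.332 to 0.0125 (Lrrtm4), and TE from -0.0971 to 0.138 (Nrxn3), -0.0615 to 0.0896 (Nlgn1), -0.0523 to 0.118 (Lrrtm1), -0.258 to 0.0118 (Lrrtm2), -0.0137 to 0.172 (Nlgn3), -0.0853 to 0.283 (Lrrtm3). The cause of these changes was not tested. With 2 mice a group and 3503873 counts in the shallowest footprint library, small changes were not detectable.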
